A study of Homo sapiens with 18 samples.

Results

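Antisense noncoding RNAs are transcribed from the strand opposite another gene, and 115 of them are described here across 5 NF-kB subunit knockouts and a control in a human B-cell line. The members were the rows typed as antisense whose mean over the 18 libraries was at least 30 normalised read counts. The table held 17155 genes and 594 antisense rows, of which 118 reached that mean, and 3 hosts of small nucleolar RNAs (ZFAS1, SNHG12 and SNHG7) were left out by name. Members were thus chosen by their mean level over all libraries, and these levels are given as a description with no test. CTD-2366F13.1 (30.5), MFI2-AS1 (31.1) and RAB11B-AS1 (31.4) lay just inside the limit, and RP11-21C4.1 (29.3), MANEA-AS1 (29.4) and LINC00852 (29.9) just outside it. In 25 members at least 1 group had a mean under 30. Without the RelB-labelled libraries 6 members had a mean under 30, so these passed the limit through the group in which they were high; of the other 109 members 61 rose and 13 fell in RelB-labelled libraries. Of the 115 members, 74 carried the name of another gene followed by -AS1 to -AS9, and 73 of those partner genes were in the table; 69 pairs had a partner with enough reads to be tested, which made 68 different partners.

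All libraries came from GM12878, a lymphoblastoid B-cell line transformed by Epstein-Barr virus, whose genotype label is wild type for the viral protein LMP1. Each of the 5 knockout groups received lentiviral guides against 1 subunit, cRel (gene REL), p50 (NFKB1), p52 (NFKB2), RelA (RELA) or RelB (RELB), and the control received a non-targeting guide. Every group, the control included, was selected in puromycin at 3 µg/ml for 5 days, and knockout was checked by immunoblot in the cells, per the labels. There were 3 libraries per group, which the labels call biological replicates. No label says whether they came from separate transductions or whether the selected cells were pools or clones, so a p-value here reflects the spread among the 3 libraries and no more.

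Values are in normalised read counts, listed library by library or as a group's mean ± SD (n = 3). A gene is said to have risen or fallen only where its Benjamini-Hochberg adjusted p in limma, over all 12381 tested genes of that comparison, was under 0.05. In the libraries labelled as cRel and RelB knockouts the transcript of the targeted gene did not fall. RELB was at 4218, 4192 and 3911 in the libraries labelled RelB knockout, against 3422, 3137 and 3400 in control, a log2 difference of 0.31 ± 0.06 (SE). REL was at 1298, 1315 and 1282 in the libraries labelled cRel knockout, against 1554, 1717 and 856 in control, and was not called (log2 difference -0.02 ± 0.19 SE). These groups are therefore written as RelB-labelled and cRel-labelled. The names do not say that the knockout failed, since RNA does not measure the protein that the immunoblot checked. NFKB1 fell by 0.59 in the p50 knockout, NFKB2 fell by 0.44 in the p52 knockout and RELA fell by 0.69 in the RelA knockout, all on the log2 scale.

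NF-kB subunits pair into dimers that bind DNA and switch genes on or off, and in cells transformed by Epstein-Barr virus LMP1 keeps both the canonical dimers (p50, RelA, cRel) and the noncanonical ones (p52, RelB) active. Antisense RNAs often start near, or inside, a coding gene. Many are short-lived because the nuclear RNA exosome degrades them, some form double-stranded RNA with the transcript they overlap, and a few silence the genes around them, as KCNQ1OT1 does at its imprinted locus.

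Promoter windows of 300 bases that span the start of the gene in RefSeq (GRCh38.p14) were found for 55 members. The NF-kB consensus site, searched by its usual definition on both strands, lay in 11 of those 55 windows (20%), in 8 of 62 partner windows (12.9%), and in 11.27% of 35116 promoters of the table. A match is only a description of these letters. The sets also differed in base content, with a median GC content of 63.67% in member windows, 65.17% in partner windows and 58.67% in all promoters. Whether the shares with a match differ was not tested. The windows shown are 6 of those 11, with the match in capitals, followed by that of XXYLT1-AS2, which rose strongly and held none.
PSMA3-AS1 window at chr14:58298088-58298387 (minus strand); C1RL-AS1 window at chr12:7108058-7108357 (plus strand), with 3 matches of which 2 overlap; TMPO-AS1 window at chr12:98516177-98516476 (minus strand).
PSMA3-AS1: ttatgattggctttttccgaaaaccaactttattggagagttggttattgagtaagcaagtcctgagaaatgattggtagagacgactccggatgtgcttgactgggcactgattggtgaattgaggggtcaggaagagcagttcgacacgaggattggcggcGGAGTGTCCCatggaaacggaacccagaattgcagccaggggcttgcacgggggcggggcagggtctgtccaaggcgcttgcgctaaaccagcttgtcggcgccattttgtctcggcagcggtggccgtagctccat
C1RL-AS1: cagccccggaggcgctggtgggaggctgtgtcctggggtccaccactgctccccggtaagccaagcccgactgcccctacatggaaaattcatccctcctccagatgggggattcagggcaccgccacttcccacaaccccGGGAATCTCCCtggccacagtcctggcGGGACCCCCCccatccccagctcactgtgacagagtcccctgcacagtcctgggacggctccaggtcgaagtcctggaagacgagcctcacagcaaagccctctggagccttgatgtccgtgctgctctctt
TMPO-AS1: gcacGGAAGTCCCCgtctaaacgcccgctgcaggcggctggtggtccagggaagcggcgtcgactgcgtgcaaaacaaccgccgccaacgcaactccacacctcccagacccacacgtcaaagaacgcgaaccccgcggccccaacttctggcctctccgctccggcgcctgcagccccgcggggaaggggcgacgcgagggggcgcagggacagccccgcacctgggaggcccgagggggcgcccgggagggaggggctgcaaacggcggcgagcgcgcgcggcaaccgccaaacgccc
VIM-AS1 window at chr10:17229936-17230235 (minus strand); DICER1-AS1 window at chr14:95157438-95157737 (plus strand); CCDC183-AS1 window at chr9:136808799-136809098 (minus strand); XXYLT1-AS2 window at chr3:195147621-195147920 (plus strand).
VIM-AS1: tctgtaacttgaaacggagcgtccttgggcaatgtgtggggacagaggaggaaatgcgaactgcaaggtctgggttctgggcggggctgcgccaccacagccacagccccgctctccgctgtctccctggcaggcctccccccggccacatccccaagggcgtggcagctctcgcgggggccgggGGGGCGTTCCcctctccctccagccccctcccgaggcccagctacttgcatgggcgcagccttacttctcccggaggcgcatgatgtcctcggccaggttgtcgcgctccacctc
DICER1-AS1: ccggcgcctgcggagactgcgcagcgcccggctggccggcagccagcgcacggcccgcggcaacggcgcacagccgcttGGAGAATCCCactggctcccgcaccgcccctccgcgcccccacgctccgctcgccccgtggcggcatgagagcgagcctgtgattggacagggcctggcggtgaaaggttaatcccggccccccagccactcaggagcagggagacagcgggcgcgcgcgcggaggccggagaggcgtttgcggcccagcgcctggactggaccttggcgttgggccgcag
CCDC183-AS1: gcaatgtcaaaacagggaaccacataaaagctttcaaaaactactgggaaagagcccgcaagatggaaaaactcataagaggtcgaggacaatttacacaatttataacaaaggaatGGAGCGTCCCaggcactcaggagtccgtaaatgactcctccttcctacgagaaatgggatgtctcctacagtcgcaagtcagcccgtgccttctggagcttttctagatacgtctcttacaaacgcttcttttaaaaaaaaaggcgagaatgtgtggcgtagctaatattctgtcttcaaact
XXYLT1-AS2: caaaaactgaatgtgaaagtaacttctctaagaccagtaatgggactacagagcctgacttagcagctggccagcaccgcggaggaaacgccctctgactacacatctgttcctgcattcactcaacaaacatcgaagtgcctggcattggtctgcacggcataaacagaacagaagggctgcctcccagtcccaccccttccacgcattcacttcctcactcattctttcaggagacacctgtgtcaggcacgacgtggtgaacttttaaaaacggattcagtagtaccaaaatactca
The DICER1-AS1 window shared 258 bases with that of DICER1 on the other strand. In all, 7 of 48 pairs with both windows shared bases.

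Libraries held 15179664 to 37473129 reads, and 1 read was worth 0.646 to 1.46 units. The median member had a mean of 84.8, against 680.1 for all tested genes, and 65 of 115 members lay under 100, so counting error weighed more on the members than on most genes. The 7 B-cell markers summed to 40944 to 51015 in every library; 4 of 6 listed T and NK markers were in the table and summed to 317 to 728, mostly NKG7, with CD3D at 0.4. Of the 6 monocyte and neutrophil markers in the table (sum 324 to 777) CSF1R alone reached a mean of 10, CD14 was at 1.2, and the erythroid marker HBB stayed at or under 18.2. A set of 3 libraries stood apart in transcript length: the Spearman correlation of exon length with the deviation from the group mean over 12363 genes was -0.45 in control 3, -0.38 in p52 knockout 3 and -0.31 in RelA knockout 2, against 0.24 and 0.36 in the other two controls. No source used here gives the strand setting of the counting. Where a member overlaps a gene on the other strand it is therefore not known whether their reads were counted apart.

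Antisense RNAs rose far more often than they fell in the RelB-labelled libraries, where 66 of the 115 members rose and 13 fell. Together these 79 members were 68.7% of the set, close to the 67.8% of all tested genes that were called in that comparison (33.1% rose and 34.7% fell). In the p52 knockout 30 members rose and 9 fell (33.9%), against 50.8% of all tested genes called, 24.5% up and 26.4% down. In the p50 knockout 20 rose and 7 fell (23.5%), against 36.7% of all tested genes, 17% up and 19.6% down. In the RelA knockout 1 member rose and 3 fell (3.48%), against 5.55% of all tested genes, 2.92% up and 2.63% down. In cRel-labelled libraries 2 rose and 2 fell (3.48%), against 6.09% of all tested genes, 4.17% up and 1.92% down. The median log2 fold change of the members was 0.45 in RelB-labelled, 0.17 in p52 knockout, 0.13 in p50 knockout, 0.05 in RelA knockout and -0.00 in cRel-labelled libraries, while that of all genes tested lay between -0.02 and 0.00. In these bulk samples fewer cells with a transcript and less of it per cell cannot be told apart.

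**Figure D1:**
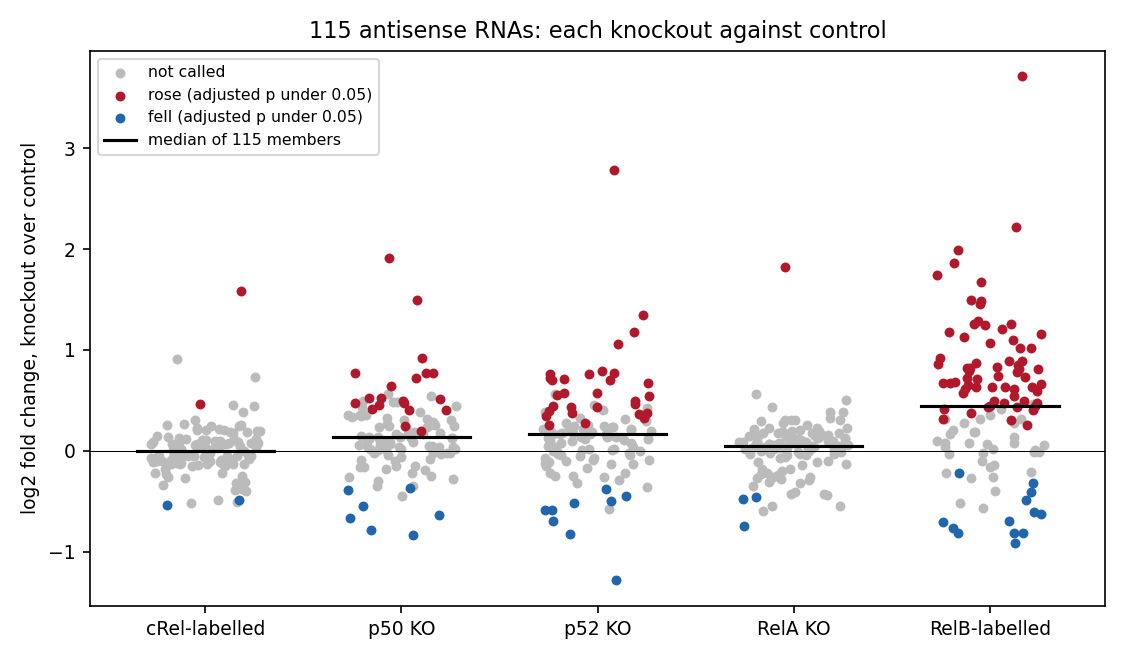
Log2 fold change (knockout over control) of each of the 115 antisense RNAs, one column of points per knockout; red and blue points rose or fell at adjusted p under 0.05 and black lines mark the median of all members. The cloud of the RelB-labelled libraries lies mostly above 0, with a median of 0.45, and that of the cRel-labelled libraries is centred near 0.

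Other genes with means of 30 to 100 also rose more often than they fell. Of 1205 other tested genes with means of 30 to 100, 546 rose and 185 fell in RelB-labelled libraries, 412 rose and 92 fell in the p52 knockout and 278 rose and 74 fell in the p50 knockout. Of 108 long intergenic noncoding RNAs with a mean of at least 30, 52 rose and 17 fell in RelB-labelled libraries. At means of at least 100, 29 of 50 members rose and 5 fell in RelB-labelled libraries (median log2 0.39), while 3030 of 9797 other genes rose and 3955 fell (median -0.07). Of these 50 members 12 rose and 4 fell in the p52 knockout, against 2263 and 3101 of the other genes, and in the p50 knockout 8 rose and 2 fell, against 1651 and 2291. The difference between members and other genes was not tested. The split also moved with scaling: after quantile normalization 42 members rose and 25 fell in RelB-labelled libraries, 11 rose and 19 fell in the p52 knockout, and 11 rose and 13 fell in the p50 knockout, with member medians of 0.20, -0.08 and -0.01. Without control 3, p52 knockout 3 and RelA knockout 2, an alternative chosen after seeing the data, 67 members rose and 10 fell in RelB-labelled libraries, 21 rose and 7 fell in the p52 knockout and 20 rose and 6 fell in the p50 knockout.

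**Figure D2:**
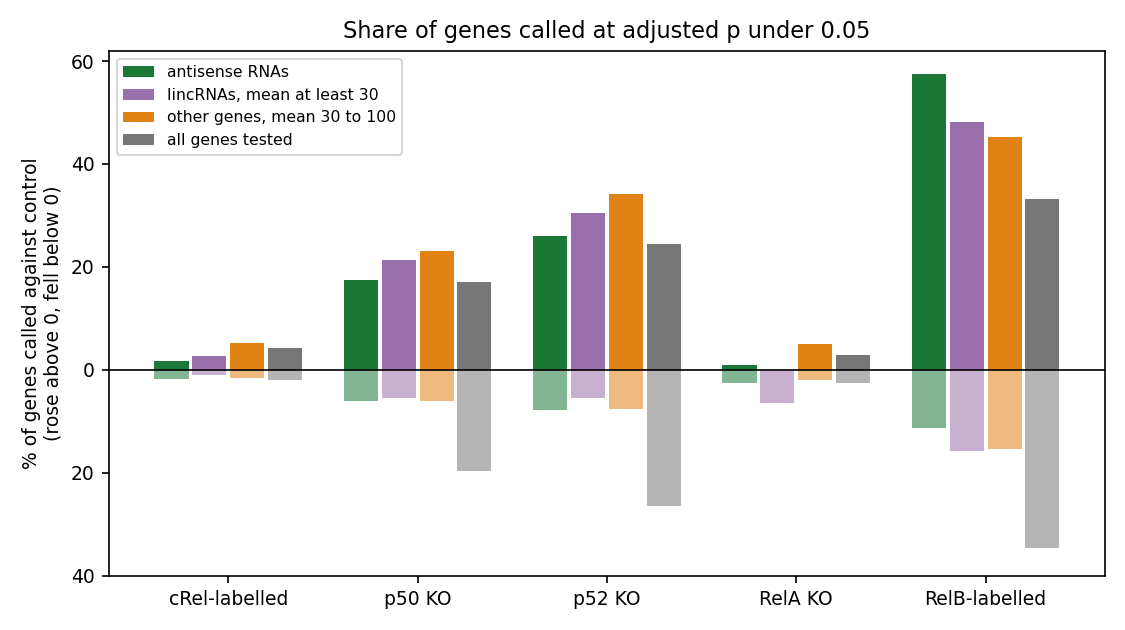
Share of genes called at adjusted p under 0.05 in each knockout against control, risen genes above 0 and fallen genes below, for the 115 antisense RNAs, 108 intergenic noncoding RNAs, 1205 other genes with means of 30 to 100 and all 12381 genes tested. The antisense RNAs, the intergenic RNAs and the genes of like read number all have taller upper than lower bars in the p50, p52 and RelB-labelled columns, while all genes tested split nearly evenly.

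At least 1 knockout moved 86 of the 115 members, against 79.6% of all tested genes. Of the members, 29 were called in no knockout, 41 in 1, 28 in 2, 14 in 3, 1 in 4 and 2 in all 5. The comparisons share the 3 control libraries. The 2 members called in all 5 were the PEBP4 antisense RNA and RP11-115C10.1, described below, and the member called in 4 was C1RL-AS1. The PEBP4 antisense RNA became a member through the RelB-labelled libraries, so its call there is only a description.

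The members that rose most in RelB-labelled libraries had few reads in control. P3H2-AS1, antisense to the collagen prolyl 3-hydroxylase gene P3H2, stood at 179, 169 and 173 in RelB-labelled libraries, against 43.0, 36.5 and 31.0 in control. The groups were far apart, and P3H2-AS1 was 4.66-fold higher (log2 2.22 ± 0.18 SE, limma adjusted p = 3.5e-10). It also rose in the p50 knockout (97.7, 121 and 98.0; log2 1.5) and in the p52 knockout (83.5, 104 and 96.5; log2 1.34). Its cRel-labelled (33.3, 23.8 and 31.3) and RelA knockout libraries (23.5, 31.3 and 38.0) overlapped the controls.

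DICER1-AS1, which starts 365 bases from the opposite-strand start of the microRNA-processing ribonuclease gene DICER1, was also highest in RelB-labelled libraries. It had 67.1, 73.6 and 75.5 in RelB-labelled libraries, against 19.8, 20.7 and 22.0 in control (log2 1.74 ± 0.21 SE, adjusted p = 2.1e-07). All 3 RelB-labelled libraries lay above all others of the study. Its p52 knockout libraries were at 41.8, 53.2 and 39.6 (log2 1.06, adjusted p = 0.00024) and its p50 knockout libraries at 36.2, 50.6 and 35.9 (log2 0.92, adjusted p = 0.0017), all above every control. DICER1 itself averaged 3091 ± 63.9 in RelB-labelled libraries and 2694 ± 570 in control and was not called in any knockout by limma, its smallest adjusted p being 0.066.

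The antisense RNA of PEBP4 (a gene with a mean of 2.87, not tested), identified in the table as ENSG00000248738, had the largest log2 fold change. Its mean without the RelB-labelled libraries was 24.8, so it became a member through them and its RelB-labelled value is given as a description. It was at 99.2, 82.2 and 87.8 in RelB-labelled libraries and 39.4, 52 and 49 in the p52 knockout, against 9.92, 1.97 and 9.05 in control, where few reads stand behind each value. The p50 knockout (18.1, 31.6 and 27.0), RelA knockout (14.6, 25.7 and 33.4) and cRel-labelled libraries (15.6, 22.9 and 21.2) also lay above all controls. The log2 differences were 3.72, 2.79, 1.91, 1.82 and 1.58 in RelB-labelled, p52, p50, RelA and cRel-labelled libraries (SE 0.37); the last 4 passed the threshold. All 5 rest on the same 3 low control values.

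XXYLT1-AS2 and TMCC1-AS1 completed the 5 largest rises. XXYLT1-AS2, antisense to a xylosyltransferase gene that acts on Notch, was at 91.9, 93.7 and 80.6 in RelB-labelled libraries, against 19.8, 16.8 and 29.7 in control (log2 1.99 ± 0.34 SE, adjusted p = 2.3e-05). It rose as well in the p52 knockout, where it had 39.4, 55.5 and 56.9 (log2 1.18, adjusted p = 0.0062). TMCC1-AS1, head to head with the gene of an endoplasmic reticulum membrane protein, was at 65.6, 71.7 and 83.7 in RelB-labelled libraries, against 19.8, 17.7 and 20.7 in control (log2 1.87). TMCC1-AS1 had a mean of 23.2 without the RelB-labelled libraries and became a member through them, so this value is a description. Neither set of RelB-labelled libraries overlapped its controls.

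The members that fell in RelB-labelled libraries moved less. RP11-175O19.4 was at 78.7, 73.6 and 103, against 165, 149 and 166 in control (log2 -0.92 ± 0.13 SE, adjusted p = 1.6e-06). FBXL19-AS1, antisense to an F-box gene, was at 35, 37.3 and 37.8, against 54.0, 85.8 and 54.3 in control (log2 -0.77, adjusted p = 0.00052). In both, every RelB-labelled library lay below every control. RP11-863K10.7 fell by 0.82, FOXN3-AS1, antisense to a forkhead repressor gene, fell by 0.81 and ATP2A1-AS1 fell by 0.81 on the log2 scale, the last with an adjusted p of 0.0683 without control 3. Their partner genes FBXL19 (-0.09) and FOXN3 (0.04) were not called.

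In the p52 knockout AATBC had the next largest rise after the PEBP4 antisense RNA, P3H2-AS1, XXYLT1-AS2 and DICER1-AS1. It had 53.7, 37.0 and 35.3 in the p52 knockout, against 33.1, 24.6 and 15.5 in control (log2 0.79 ± 0.25 SE, adjusted p = 0.01). The adjusted p was 0.0894 without control 3, 0.0646 without p52 knockout 1 and 0.0646 without the 3 libraries that stood apart. AC011893.3, which overlaps the lactase gene LCT (mean 4.67, not tested), fell most. It was at 32.2, 20.8 and 39.6 in the p52 knockout, against 73.9, 58.2 and 95.0 in control (log2 -1.28 ± 0.21 SE, adjusted p = 3.2e-05), with no overlap.

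RP11-649A18.12 fell by 0.83 on the log2 scale in the p52 knockout, where its libraries overlapped the controls. CCDC183-AS1 fell in the p52 knockout, with 15.5, 22.0 and 24.5, against 33.1, 37.5 and 30.4 in control (log2 -0.70, adjusted p = 0.0041). FBXL19-AS1 fell by 0.59 there, with an adjusted p of 0.0837 without control 2. PINK1-AS, antisense to the gene of a mitochondrial kinase, was at 57.3, 61.3 and 50.4 in the p52 knockout, against 88.2, 82.8 and 82.7 in control (log2 -0.58, adjusted p = 0.003), and CARD8-AS1 at 130, 155 and 176, against 202, 239 and 218 in control (log2 -0.52, adjusted p = 0.0016). The p52 knockout libraries of CCDC183-AS1, FBXL19-AS1, PINK1-AS and CARD8-AS1 each lay below its controls.

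In the p50 knockout the rises after the PEBP4 antisense RNA, P3H2-AS1 and DICER1-AS1 were those of CTB-55O6.12, STX18-AS1 and AC074289.1, each with a log2 of 0.77. STX18-AS1, antisense to a syntaxin gene, was at 100, 116 and 121, against 55.1, 81.8 and 61.4 in control (log2 0.77 ± 0.16 SE, adjusted p = 0.00068). CTB-55O6.12 was at 30.8, 55.8 and 53.1, against 27.6, 30.6 and 20.7 in control (log2 0.77, adjusted p = 0.009); the adjusted p was 0.0568 without control 3, 0.0609 and 0.0511 without p50 knockout 2 or 3, and 0.0606 without the 3 libraries that stood apart. The p50 knockout libraries lay above the controls in both, p50 knockout 1 of CTB-55O6.12 only just.

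TMPO-AS1, RP5-1120P11.1, RP11-863K10.7 and AC011893.3 were the 4 largest falls in the p50 knockout. TMPO-AS1 was at 112, 106 and 130 in the p50 knockout, against 186, 164 and 206 in control (log2 -0.67 ± 0.12 SE, adjusted p = 0.00017). RP5-1120P11.1, which overlaps C6orf223, was at 29.9, 24.2 and 22.9, against 48.5, 37.5 and 54.3 in control (log2 -0.83, adjusted p = 0.0087). RP11-863K10.7 was at 38.9, 34.8 and 24.5, against 60.6, 55.2 and 52.4 in control (log2 -0.78), with an adjusted p of 0.0812 without p50 knockout 3. Both had no overlap with control. AC011893.3 fell by 0.64 in the p50 knockout, with adjusted p of 0.135 without control 3, 0.0632 and 0.0561 without p50 knockout 1 or 2 and 0.106 without the 3 libraries that stood apart.

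The RelA knockout moved 4 members. The PEBP4 antisense RNA rose, as given above. RP11-277P12.20, which overlaps the natural killer receptor gene KLRK1 (mean 1.22), was at 48.1, 42.5 and 54.1 in the RelA knockout, against 92.6, 71.0 and 82.1 in control (log2 -0.75 ± 0.15 SE, adjusted p = 0.003). RP11-115C10.1 was at 265, 309 and 310, against 416, 345 and 482 in control (log2 -0.48), and CTD-2516F10.2 at 84.0, 82.7 and 100, against 138, 129 and 101 in control (log2 -0.45). All 3 lay below their controls, CTD-2516F10.2 only just. The RP11-115C10.1 call had adjusted p of 0.0796 without RelA knockout 1, 0.0888 without control 3 and 0.0624 without the 3 libraries that stood apart, and that of CTD-2516F10.2 had 0.129 and 0.109 without RelA knockout 1 or 2 and 0.159 and 0.0853 without control 1 or 2.

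The cRel-labelled libraries also moved 4 members, and the count was 1 without control 3 and 2 without cRel-labelled 1. The PEBP4 antisense RNA was the 1 member called under every library left out. C1RL-AS1 was at 273, 249 and 289 in cRel-labelled libraries, against 198, 234 and 162 in control (log2 0.46, adjusted p = 0.03). RP11-132A1.4 was at 81.3, 84.2 and 94.0, against 117, 136 and 125 in control (log2 -0.54, adjusted p = 0.018). RP11-115C10.1 was at 294, 299 and 287 (log2 -0.48, adjusted p = 0.01). None overlapped its controls, but each call was lost without at least 1 library: C1RL-AS1 without cRel-labelled 1 (0.09) or 3 (0.141), control 1 (0.0615) or 3 (0.214) or the 3 libraries that stood apart (0.119); RP11-132A1.4 without cRel-labelled 1 (0.0788) or 2 (0.0692) or control 2 (0.0629) or 3 (0.0543); and RP11-115C10.1 without control 3 (0.0872) or the 3 libraries that stood apart (0.0521), all as adjusted p.

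The 5 knockouts differed from one another in 83 of 115 members by limma's F-test (72.2%, against 78.8% of all tested genes). RP11-115C10.1, which overlaps the cell-adhesion gene KIRREL3 (mean 8.46, not tested), had the smallest p of the members (F-test adjusted p = 2.9e-12). It averaged 293 ± 6.03 in cRel-labelled, 548 ± 76.1 in p50 knockout, 681 ± 70.2 in p52 knockout, 295 ± 25.3 in RelA knockout and 1130 ± 117 in RelB-labelled libraries, and 414 ± 68.3 in control. It was thus below control in 2 groups and above it in 3; the p50 rise (log2 0.41) had an adjusted p of 0.0641 without control 2 and 0.0651 without p50 knockout 3. P3H2-AS1 came next (2.5e-11).

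CTD-2516F10.2 and RP11-277P12.20 fell in the RelA knockout and rose in RelB-labelled libraries. CTD-2516F10.2 averaged 89.0 ± 9.73 in the RelA knockout and 342 ± 9.90 in RelB-labelled libraries, and 123 ± 19.0 in control (RelB-labelled log2 1.48; F-test adjusted p = 6e-11). RP11-277P12.20 averaged 48.2 ± 5.81 in the RelA knockout and 233 ± 31.9 in RelB-labelled libraries, and 81.9 ± 10.8 in control (RelB-labelled log2 1.5; F-test adjusted p = 1.7e-10). The RelB-labelled libraries of both lay above every other library.

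MEF2C-AS1, antisense to the gene of a transcription factor of B-cell development, split the p52 knockout from the RelB-labelled libraries. It was at 112, 156 and 140 in the p52 knockout (log2 -0.49, adjusted p = 0.0012) and 335, 326 and 319 in RelB-labelled libraries (log2 0.78, adjusted p = 4e-06), against 180, 197 and 195 in control. The 3 groups did not overlap, and the F-test gave an adjusted p of 3.5e-08. AC074289.1 was highest in the RelB-labelled (184, 167 and 220) and p50 knockout libraries (170, 183 and 198), against 101, 108 and 112 in control. LINC-PINT, a p53-induced RNA, averaged 451 ± 36.3 in RelB-labelled libraries and 249 ± 15.2 in control (log2 0.86), and RP11-218M22.1 averaged 193 ± 17.9 in RelB-labelled libraries and 84.2 ± 2.15 in control (log2 1.18).

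**Figure D3:**
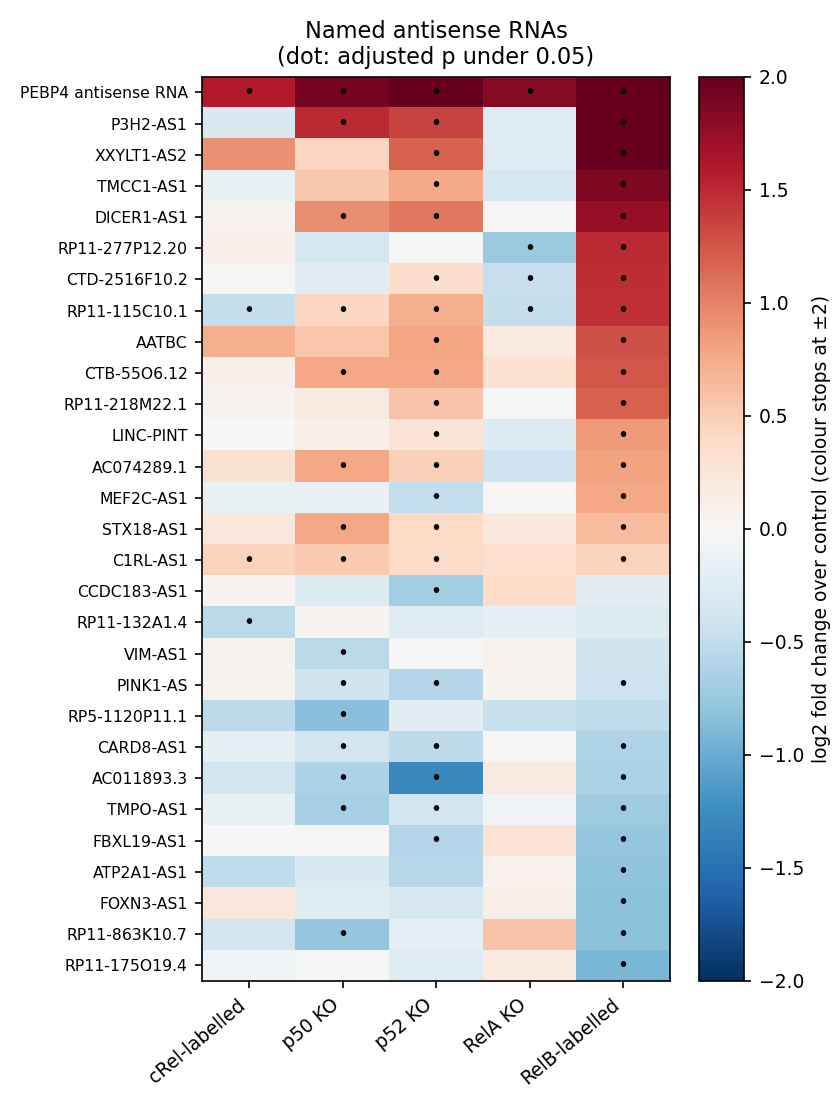
Log2 fold change over control of the 29 antisense RNAs with the largest called changes in a knockout or the smallest F-test p, ordered by their value in RelB-labelled libraries; a dot marks adjusted p under 0.05 and colours stop at 2 either side of 0. The RelB-labelled, p52 and p50 columns carry most of the dots, the PEBP4 antisense RNA has a dot in every column, and RP11-115C10.1 is blue in the cRel-labelled and RelA columns and red in the other 3. The RelB-labelled dots of the PEBP4 antisense RNA and TMCC1-AS1 are descriptions, since both became members through those libraries.

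**Figure D4:**
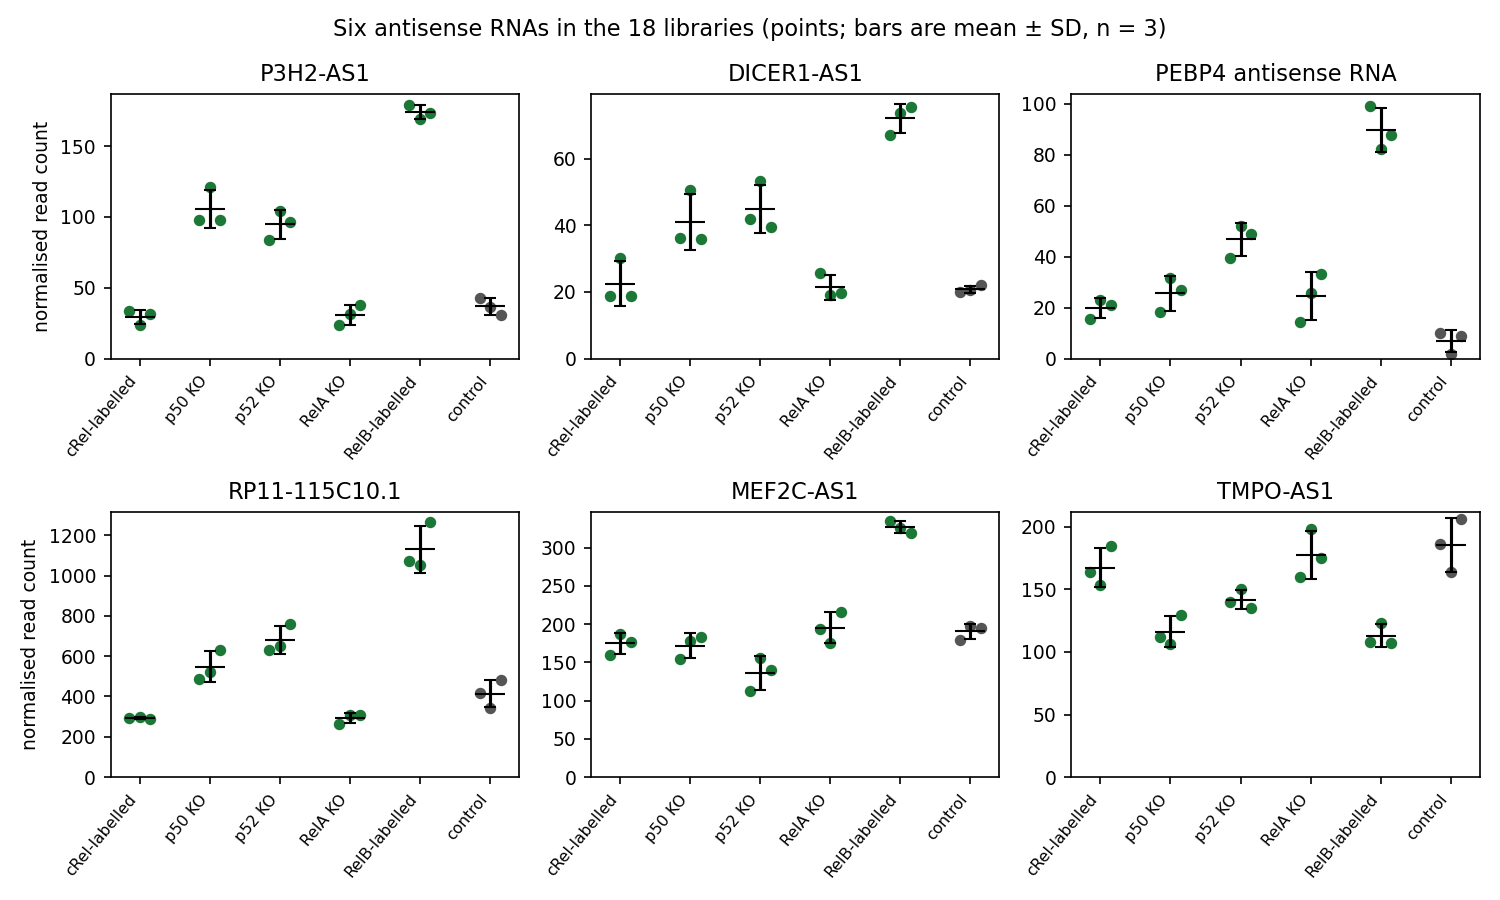
Normalised read count of 6 antisense RNAs in each of the 18 libraries (points), with mean ± SD per group (n = 3), control in grey on the right. P3H2-AS1, DICER1-AS1 and RP11-115C10.1 are highest in the RelB-labelled libraries and next in the p52 and p50 knockouts, while TMPO-AS1 is lowest in the RelB-labelled and p50 knockout libraries.

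Of the 6 members with the most reads, 3 were not called against control in any knockout. FGD5-AS1, with the highest mean (2472), was at 2718, 2484 and 2416 in RelB-labelled libraries, against 2352, 2591 and 2298 in control, and was not called in any knockout by limma (log2 -0.10 to 0.17, smallest adjusted p 0.15). AFAP1-AS1 (mean 1003) and PSMA3-AS1 (mean 502) were likewise not called in any knockout, with smallest adjusted p of 0.27 and 0.19; among the knockouts, the F-test gave adjusted p of 0.0012 for FGD5-AS1, 0.0093 for PSMA3-AS1 and 0.25 for AFAP1-AS1. LY86-AS1, antisense to the gene of the RP105-binding protein MD-1, rose in RelB-labelled (716, 711 and 789; log2 0.43), p52 knockout (678, 666 and 770; log2 0.36) and p50 knockout libraries (640, 816 and 742; log2 0.41), against 518, 559 and 564 in control. TP73-AS1, which GENCODE 29 types as a pseudogene, rose by a log2 of 0.25 in RelB-labelled libraries (600 ± 39.0, against 503 ± 9.87 in control). Its rise of 0.20 in the p50 knockout only just passed the threshold (limma adjusted p = 0.0495). The sixth, RP11-115C10.1, was called in all 5 knockouts, as given above. Read counts also grow with transcript length.

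Partner genes moved in both directions. Of 68 tested partners, 25 rose and 23 fell in RelB-labelled libraries (70.6% called, against 67.8% of all tested genes), 18 rose and 20 fell in the p52 knockout (55.9%, against 50.8%), and 11 rose and 14 fell in the p50 knockout (36.8%, against 36.7%). In the RelA knockout 2 rose and 2 fell (5.88%, against 5.55%), and in cRel-labelled libraries 1 rose and 1 fell (2.94%, against 6.09%). The cRel-labelled count of 2 was 1 without any 1 of RelA knockout 1 or 2, RelB-labelled 1 or 2, cRel-labelled 1, 2 or 3, p50 knockout 3 or p52 knockout 2, and 4 without control 2 or p52 knockout 3; the RelA count of 4 was 2 without RelA knockout 2 or control 1. Of the 69 pairs, in RelB-labelled libraries both genes rose in 18, both fell in 2, the genes went opposite ways in 13, the antisense RNA alone was called in 13, the partner alone in 16 and neither in 7. These counts were 5, 2, 2, 13, 30 and 17 in the p52 knockout, and in the p50 knockout 3, 2, 2, 9, 19 and 34. Of the 74 members with such a name, 67.6% were called in RelB-labelled, 31.1% in p52 knockout and 21.6% in p50 knockout libraries. At such shares many pairs have both genes called whether or not the 2 genes are linked. Whether the pair counts differ from those of unlinked genes was not tested. No pair had both genes called in the RelA knockout or in cRel-labelled libraries, where limma called 4 and 2 partners and no or 1 antisense RNA of a pair.

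**Figure D5:**
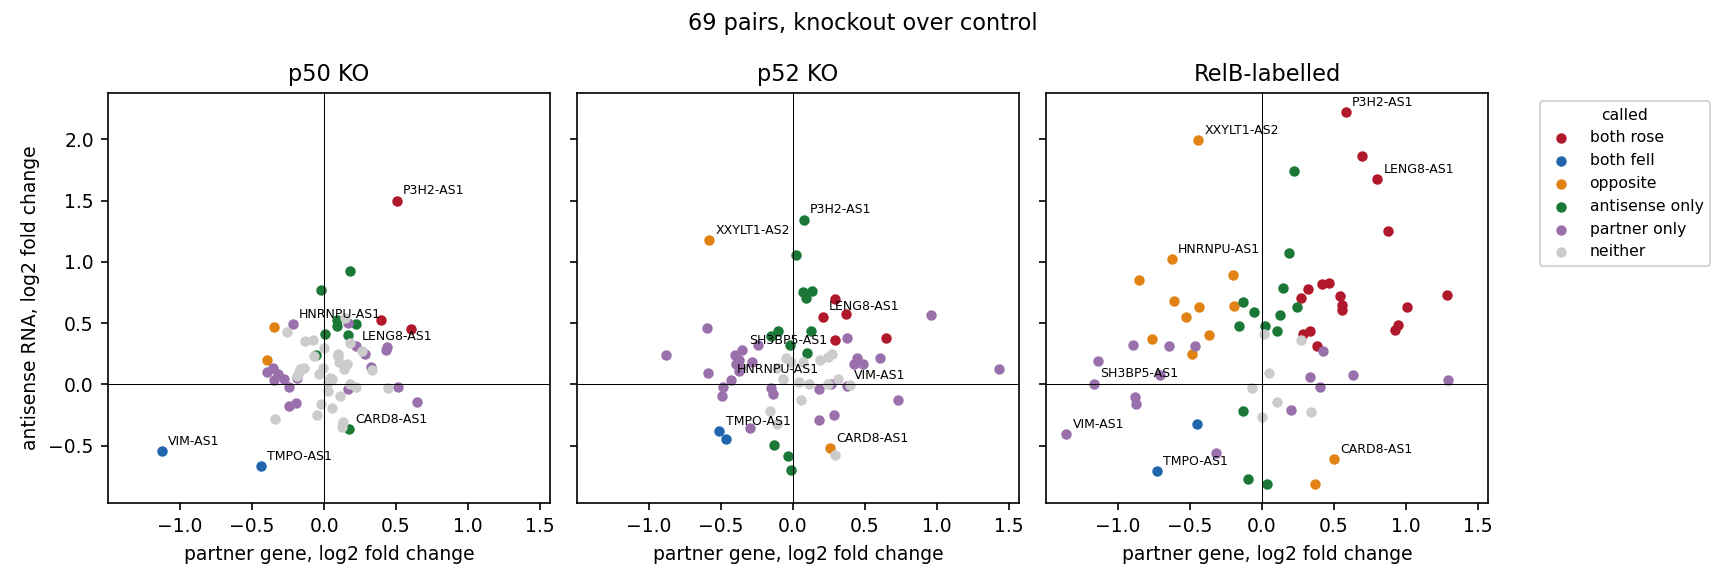
Log2 fold change of the antisense RNA (vertical axis) against that of its partner gene (horizontal axis), knockout over control, for 69 pairs in the p50 knockout, the p52 knockout and RelB-labelled libraries, coloured by which gene was called at adjusted p under 0.05. In RelB-labelled libraries 18 pairs lie at the upper right with both called and most opposite pairs at the upper left, an antisense RNA up and its partner down. The 18 include TMCC1-AS1, MFI2-AS1 and DLGAP4-AS1, which became members through these libraries.

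Across the 69 pairs, Pearson's r between the log2 fold changes of antisense RNA and partner was 0.26 in RelB-labelled, 0.06 in p52 knockout and 0.35 in p50 knockout libraries. This describes pairs that share libraries and, where they overlap, possibly reads. Per kilobase of exon (GENCODE 29), the partner had the higher level in 59 of 72 pairs and the antisense RNA in 13, with a median ratio of partner over antisense of 7.47. FGD5-AS1 was the extreme, at 482 units per kilobase, against 0.146 for FGD5.

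Pairs in which both genes rose in RelB-labelled libraries were led by P3H2-AS1 and LENG8-AS1, apart from TMCC1-AS1, whose value there is a description. The antisense RNAs TMCC1-AS1, MFI2-AS1 and DLGAP4-AS1, which became members through the RelB-labelled libraries, are counted in the 18. Their rises there are therefore no independent calls. P3H2 had 5722, 5253 and 5124 in RelB-labelled libraries, against 3743, 3483 and 3512 in control (log2 0.58, adjusted p = 1.3e-08), a smaller rise than the 2.22 of P3H2-AS1. In the p50 knockout P3H2 rose by a log2 of 0.51, and in the p52 knockout, where P3H2-AS1 rose by 1.34, it had 3641, 3759 and 3916 and was not called (log2 0.08). TMCC1 had 486, 490 and 463 in RelB-labelled libraries, against 287, 310 and 293 in control (log2 0.69, adjusted p = 5.7e-07).

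LENG8-AS1, which starts 158 bases from LENG8 on the other strand, was at 108, 118 and 130 in RelB-labelled libraries, against 36.4, 43.4 and 30.4 in control (log2 1.67 ± 0.20 SE, adjusted p = 1.9e-07). LENG8 was at 8478, 8861 and 7566, against 4424, 5121 and 4719 in control (log2 0.80, adjusted p = 1.1e-08). Neither gene's groups overlapped. The melanotransferrin gene MFI2 rose by 0.87 on the log2 scale; MFI2-AS1 had a log2 difference of 1.25, a description since its mean was 26.5 without the RelB-labelled libraries.

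Pairs of transcription factor genes and their antisense RNAs were among the 18. NR2F2-AS1 was at 118, 98.5 and 135 in RelB-labelled libraries, against 78.3, 62.1 and 57.5 in control (log2 0.82), and the nuclear receptor gene NR2F2 at 4756, 5190 and 4203, against 3722, 3263 and 3576 in control (log2 0.42). FOXP4-AS1 rose by 0.83 with the forkhead gene FOXP4 by 0.46, FOXD2-AS1 by 0.63 with FOXD2 by 1.01, and MEF2C-AS1 by 0.78 with MEF2C by 0.32. For each of these 8 genes the RelB-labelled libraries lay above all controls. Of the 8 partners listed as transcription and chromatin genes, 6 rose and none fell in RelB-labelled libraries (MEF2C, FOXP4, NR2F2, FOXD2, ZNF529 and ZBTB11), 75% called, against 67.8% of all tested genes called and 33.1% risen. The list was made from the first letters of gene symbols and does not hold every transcription factor gene among the partners. Outside it, TP73 and SNAI3 fell and MAFG rose in RelB-labelled libraries. FOXN3 and ZSCAN16 were not called; the ZNF529 rise of 0.27 had adjusted p of 0.0559 without RelB-labelled 1, 0.108 without control 3 and 0.0853 without the 3 libraries that stood apart, and that of ZBTB11 had 0.103 without RelB-labelled 1 and 0.0789 without control 3.

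Other pairs among the 18 were those of ST3GAL6, ALOX12, ARRDC1 and STARD4. The sialyltransferase gene ST3GAL6 was at 1407, 1362 and 1483 in RelB-labelled libraries, against 595, 556 and 589 in control (log2 1.29, adjusted p = 9.3e-10), and ST3GAL6-AS1 was at 74.4, 67.9 and 68.4, against 39.7, 34.5 and 53.6 in control (log2 0.73, adjusted p = 0.006). The arachidonate lipoxygenase gene ALOX12 rose by 0.95 and ALOX12-AS1 by 0.49. ARRDC1-AS1 was at 410, 496 and 463 in RelB-labelled libraries, against 290, 258 and 352 in control (log2 0.61), close to the 0.56 of ARRDC1. The cholesterol-transfer gene STARD4 rose by 0.56 and STARD4-AS1 by 0.65, STARD4-AS1 with an adjusted p of 0.0507 without control 3.

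C1RL-AS1 and C1RL, the gene of a complement C1r-like protease, rose together in 3 knockouts. C1RL had 139, 124 and 137 in RelB-labelled libraries, against 79.4, 75.9 and 56.2 in control (log2 0.92, adjusted p = 3.8e-06), and C1RL-AS1 had 292, 266 and 244, against 198, 234 and 162 in control (log2 0.44, adjusted p = 0.0038). In the p50 knockout C1RL-AS1 rose by 0.53 and C1RL by 0.40, the C1RL call with adjusted p of 0.188 without control 3, 0.0651 and 0.0619 without p50 knockout 1 or 3 and 0.187 without the 3 libraries that stood apart. In the p52 knockout C1RL rose by 0.64 and C1RL-AS1 by 0.38, whose adjusted p was 0.127 without control 3 and 0.117 without p52 knockout 1. In cRel-labelled libraries C1RL was at 52.1, 67.7 and 58.5 and was not called, while C1RL-AS1 was 1.38-fold higher.

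In the p52 knockout MAP3K14-AS1 and MAP3K14, the gene of the NIK kinase that starts the processing of the p52 precursor, both rose. MAP3K14-AS1 was at 68.0, 71.7 and 51.1, against 39.7, 33.5 and 42.7 in control (log2 0.70, adjusted p = 0.0023). MAP3K14 was at 1518, 1462 and 1152, against 1185, 1154 and 1011 in control (log2 0.29, adjusted p = 0.0064), with p52 knockout 3 inside the control range. MAP3K14-AS1 also rose in RelB-labelled libraries (65.6, 69.8 and 66.3; log2 0.79), where MAP3K14 was not called (log2 0.15). MAP3K14 rose by 0.41 in the RelA knockout and 0.28 in the p50 knockout, the p50 call with adjusted p of 0.078 without control 3 and 0.055 without p50 knockout 2.

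The 13 opposite pairs in RelB-labelled libraries comprised 11 with the antisense RNA up and the partner down and 2 (CARD8 and ATP2A1) with the reverse. HNRNPU-AS1 was at 99.2, 103 and 134 in RelB-labelled libraries, against 57.3, 64.1 and 43.3 in control (log2 1.02 ± 0.20 SE, adjusted p = 0.00013). HNRNPU, the gene of a nuclear RNA-binding protein, was at 11245, 12184 and 11087, against 17841, 18820 and 16632 in control (log2 -0.63, adjusted p = 1.2e-08). SLC16A1-AS1 was at 188, 249 and 227, against 97.0, 132 and 140 in control (log2 0.85), while the lactate transporter gene SLC16A1 was at 2775, 2717 and 2941, against 5278, 5179 and 4794 in control (log2 -0.85, adjusted p = 8.4e-12). In all 4 genes RelB-labelled and control libraries did not overlap.

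XXYLT1 fell by 0.44 in RelB-labelled libraries (378, 428 and 435, against 519, 583 and 584 in control) and by 0.58 in the p52 knockout, the groups in which XXYLT1-AS2 rose. NOP14, which encodes a ribosome assembly factor, was at 2630, 2732 and 2559 in RelB-labelled libraries, against 3652, 3964 and 3795 in control (log2 -0.53), while NOP14-AS1 rose by 0.55. NIFK, the gene of a nucleolar protein, fell by 0.76 while NIFK-AS1 rose by 0.37, the antisense call with adjusted p of 0.0801 without RelB-labelled 1 and 0.0992 without control 2. TP73, a relative of p53, fell in RelB-labelled (log2 -0.49), p52 knockout (-0.59) and p50 knockout libraries (-0.40), while TP73-AS1 rose by 0.25 in RelB-labelled libraries. TP73-AS1 also rose by 0.20 in the p50 knockout (limma adjusted p = 0.0495), a call lost in 18 of 29 other settings. The remaining such pairs were SNAI3 with SNAI3-AS1, KTN1 with KTN1-AS1, NAPA with NAPA-AS1, BZRAP1 with BZRAP1-AS1 and STX18 with STX18-AS1; the STX18 fall of 0.19 had adjusted p of 0.0657 without RelB-labelled 1, 0.138 without control 3 and 0.116 without the 3 libraries that stood apart.

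CARD8, the gene of an inflammasome sensor, moved against its antisense RNA in 2 knockouts. CARD8-AS1, which starts 271 bases from CARD8 on the other strand, was at 143, 139 and 148 in RelB-labelled libraries, against 202, 239 and 218 in control (log2 -0.61, adjusted p = 0.0002). CARD8 was at 1306, 1127 and 1199, against 837, 883 and 838 in control (log2 0.50, adjusted p = 2.8e-06). In the p52 knockout CARD8 rose by 0.25. The ATP2A1 rise of 0.37 in RelB-labelled libraries had adjusted p between 0.0573 and 0.0748 without RelB-labelled 1 or 2 or control 1 or 2.

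TMPO-AS1 and TMPO, the gene of the nuclear lamina protein LAP2, fell together in 3 knockouts. TMPO was at 8488, 8113 and 8747 in RelB-labelled, 9737, 9952 and 9744 in p52 knockout and 10634, 10169 and 10142 in p50 knockout libraries, against 14036, 14569 and 13369 in control (log2 -0.73, -0.51 and -0.44). TMPO-AS1 was at 108, 123 and 107 in RelB-labelled and 140, 150 and 135 in p52 knockout libraries, against 186, 164 and 206 in control (log2 -0.71 and -0.38). No library of these knockouts reached a control. The p52 call of TMPO-AS1 had an adjusted p of 0.0628 without control 3 and 0.126 without the 3 libraries that stood apart. OTUD6B-AS1 (323, against 404 in control) and the deubiquitinase gene OTUD6B (715, against 977 in control) both fell in RelB-labelled libraries, by 0.32 and 0.45 on the log2 scale.

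VIM, which encodes the intermediate filament vimentin, changed more than its antisense RNA. VIM was at 1366, 1239 and 1440 in RelB-labelled and 1476, 1672 and 1596 in p50 knockout libraries, against 3286, 3272 and 3831 in control (log2 -1.36 and -1.13). In the p52 knockout (log2 0.38) and cRel-labelled libraries (log2 0.37) it rose. VIM-AS1 was at 39.8, 43.2 and 54.7 in the p50 knockout, against 70.6, 58.2 and 72.4 in control (log2 -0.54, adjusted p = 0.032), a call lost without control 1 (0.0843) or 3 (0.101), p50 knockout 1 (0.112) or 2 (0.0921) or the 3 libraries that stood apart (0.0662). In RelB-labelled libraries it was at 67.1, 43.0 and 43.9 and was not called.

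Among the partners of the most-read members, AFAP1, the gene of an actin-filament protein, rose in the p52 and p50 knockouts (log2 0.73 and 0.65) and fell in RelB-labelled libraries (log2 -0.71) while AFAP1-AS1 was not called. AFAP1 was at 108, 92.7 and 92.9 in RelB-labelled, 286, 269 and 244 in p52 knockout and 242, 258 and 254 in p50 knockout libraries, against 169, 158 and 154 in control. None of these 3 groups overlapped control. The proteasome gene PSMA3 was at 2218, 2347 and 2441 in RelB-labelled libraries, against 4021, 4090 and 4836 in control (log2 -0.88, adjusted p = 1.5e-07), with PSMA3-AS1 at 464, 482 and 437, against 514, 452 and 521 in control (not called).

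Of the 115 members 111 were found in GENCODE 29 (GRCh38) by identifier; 103 overlapped a coding gene on the other strand, and 103 were still typed antisense. In 72 pairs both genes were found: 66 overlapped on opposite strands and 6 stood head to head without overlap. Exon bases were shared in 55 pairs and in 17 they were not, and in 21 pairs the starts lay within 1000 bases. Of the 16 tested pairs that share no exon base in this annotation, both genes rose in RelB-labelled libraries in 7 (TMCC1, P3H2, NR2F2, FOXP4, FOXD2 and PIK3CD among them), both fell in 1 (OTUD6B) and they went opposite ways in 1 (XXYLT1). The PIK3CD-AS1 call had adjusted p of 0.0724 without RelB-labelled 2, 0.195 without control 1 and 0.0691 without control 2. Of the 52 that share exon bases, 11 rose together, 1 fell together and 11 went opposite ways. TMCC1-AS1 among the 7, and MFI2-AS1 and DLGAP4-AS1 among the 11 that rose together, became members through the RelB-labelled libraries.

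Members without an -AS name were compared with the coding genes they overlap on the other strand, which gave 31 tested combinations of 29 members; these examples were chosen after their values were seen. In RelB-labelled libraries both genes rose in 7 combinations, both fell in 1, 5 went opposite ways, the antisense RNA alone was called in 5, the coding gene alone in 11 and neither in 2. Of all 41 members without an -AS name 29 were called there (70.7%, against 67.8% of all tested genes). At such shares many combinations have both genes called whether or not the genes are linked, which was not tested. RP11-159H10.3, which overlaps SLCO5A1, had a mean of 29.9 without the RelB-labelled libraries and became a member through them. It is counted in the 7 combinations, so its rise there is no independent call. The 29 called members include it and the PEBP4 antisense RNA, which also became a member through these libraries. KCNQ1OT1 was at 157, 165 and 171 in RelB-labelled libraries, against 93.7, 115 and 64.0 in control (log2 0.89, adjusted p = 0.00034), and the potassium channel gene KCNQ1 at 124, 106 and 111, against 17.6, 9.86 and 18.7 in control (log2 2.85, adjusted p = 1.4e-09). All RelB-labelled libraries lay above all controls in both genes.

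AC074289.1 and PELI1, the gene of a ubiquitin ligase of Toll-like receptor signalling, rose together in RelB-labelled libraries and in the p50 knockout. PELI1 was at 3176, 3086 and 3214 in RelB-labelled and 3034, 3056 and 2994 in p50 knockout libraries, against 2355, 1990 and 1694 in control (log2 0.66 and 0.60). RP11-333E1.1 and the B-cell adaptor gene SCIMP rose in the RelB-labelled (log2 1.16 and 1.02), p52 knockout (0.55 and 0.67) and p50 knockout libraries (0.73 and 0.60). PINK1-AS fell by 0.41 in RelB-labelled libraries while PINK1 rose by 0.67; the PINK1-AS call had adjusted p of 0.0584 without RelB-labelled 1 and 0.0635 without control 1. RP11-383H13.1 rose by 0.92 in RelB-labelled libraries, while MSC, the gene of a B-cell basic helix-loop-helix repressor, was at 1346, 1349 and 1235, against 3615, 3376 and 3959 in control (log2 -1.48). RP11-356I2.4 was not called in any knockout, whereas TNFAIP3, the A20 feedback inhibitor of NF-kB that it overlaps, rose by 0.75 in RelB-labelled libraries. TNFAIP3 fell by 0.35 in the RelA knockout, with an adjusted p of 0.0621 without control 1.

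The other partner lists were small. Of the 4 immune and signalling partners, PIK3CD, the gene of a B-cell phosphoinositide 3-kinase subunit, rose by 0.34 and BZRAP1 fell by 0.37 in RelB-labelled libraries, and MAP3K14 rose by 0.41 and the integrin gene ITGB2 fell by 0.37 in the RelA knockout. In the p50 and p52 knockouts 2 rose (PIK3CD and MAP3K14) and 0 fell. The PIK3CD call in the p50 knockout had adjusted p of 0.0765 without control 1 and 0.132 without control 3. It was also lost without p50 knockout 1 (0.0663), 2 (0.0827) or 3 (0.052) or the 3 libraries that stood apart (0.0846). The PIK3CD call in the p52 knockout had adjusted p of 0.0667 without control 3 and 0.0571 without p52 knockout 1. In each of these 4 groups 50% were called, against 67.8% (RelB-labelled), 5.55% (RelA), 36.7% (p50) and 50.8% (p52) of all tested genes. In cRel-labelled libraries 0 were called. Of the 2 RNA and translation partners, HNRNPU fell in RelB-labelled (log2 -0.63) and p52 knockout libraries (-0.43) and in the p50 knockout (-0.22, adjusted p of 0.0533 without control 2), and RBM26 was not called in any knockout. That is 50% called in each, against 67.8%, 50.8% and 36.7% of all tested genes.

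Genes of the nuclear machinery that degrades antisense RNAs were called about as often as all tested genes in RelB-labelled, p52 knockout and p50 knockout libraries, with more falls than rises. Of 30 tested genes for the RNA exosome, its adaptors and transcription termination, 19 fell and 3 rose in RelB-labelled libraries, 16 fell and none rose in the p52 knockout, and 12 fell and none rose in the p50 knockout. That is 73.3%, 53.3% and 40% called, against 67.8%, 50.8% and 36.7% of all tested genes, of which 34.7%, 26.4% and 19.6% fell. Their median log2 fold changes were -0.29, -0.25 and -0.11, beside medians of all genes tested of -0.00, 0.00 and -0.00. The nuclear exosome cofactor MPHOSPH6 had log2 fold changes of -0.89, -0.72 and -0.41 in these 3, the cap-binding gene NCBP1 -0.70, -0.58 and -0.31, and the adaptor gene SRRT -0.72, -0.59 and -0.43. Those that rose in RelB-labelled libraries were ZFC3H1 (0.92), ZCCHC7 (0.39) and ZCCHC8 (0.23), also exosome adaptors, the last with an adjusted p of 0.0506 without RelB-labelled 3. In the RelA knockout 1 rose (NCBP1) and in cRel-labelled libraries 1 fell (ZCCHC7). The NCBP1 call had adjusted p between 0.0671 and 0.152 without RelA knockout 1 or 3 or control 1 or 3 and 0.0752 without the 3 libraries that stood apart, and the ZCCHC7 call had 0.069 without cRel-labelled 1 and 0.0771 without control 3.

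Of 24 genes that edit, process or sense double-stranded RNA, 6 rose and 9 fell in RelB-labelled libraries, 1 rose and 14 fell in the p52 knockout and 1 rose and 10 fell in the p50 knockout. That is 62.5%, 62.5% and 45.8% called, against 67.8%, 50.8% and 36.7% of all tested genes. By direction 37.5%, 58.3% and 41.7% fell, against 34.7%, 26.4% and 19.6% of all tested genes. The risen shares were 25%, 4.17% and 4.17%, against 33.1%, 24.5% and 17%. DHX9, an RNA helicase gene, fell in all 3, with log2 fold changes of -0.65, -0.66 and -0.31, and so did ILF2, with -0.59, -0.59 and -0.33. The sensor gene IFIH1 rose in RelB-labelled (0.47), p52 knockout (0.49) and cRel-labelled libraries (0.46), and its adaptor gene MAVS in RelB-labelled (0.78) and p50 knockout libraries (0.38, adjusted p of 0.0929 without control 3). OAS3, an interferon-induced enzyme activated by double-stranded RNA, rose in RelB-labelled (0.54) and RelA knockout libraries (0.63) and fell in the p50 knockout (-0.82). In the RelA knockout OAS2 also rose (0.42), and the other 22 genes were not called; in cRel-labelled libraries IFIH1 alone was called. Whether the changes of either list bear on the members was not tested.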

How the data were processed

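RNA sequencing of polyA RNA (NEBNext Ultra II Directional kit, per the labels' protocols) was measured in 18 GM12878 libraries, 3 in each of 6 groups. Per the submitters' processing notes the tools were STAR 2.5.2b, featureCounts 1.5.1 and DESeq2 1.14.1 with GRCh37; no source used here gives the annotation release or the strand setting of the counting. The deposited signal values are normalised read counts: 100% of 308790 values became whole reads (within 0.001) when divided by what 1 read is worth in that library, so they are reads over a size factor.

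Genes with a mean of at least 10 were tested with limma 3.58.1 (R 4.3.3, trend) on log2(value + 1) in a single fit of all 18 libraries, two-sided, with Benjamini-Hochberg adjustment over all tested genes; fold changes are on that scale and understate the change of low genes. Differences among the knockouts used limma's F-test. The members and gene lists were chosen with earlier results of these data known. Named genes were, per knockout, up to 5 called members at each end with no overlap between knockout and control libraries, the 8 smallest F-test p and the 6 highest means. The rule also took in their partners and every pair with both genes called, but some of these, such as DYNLL1 with DYNLL1-AS1, are not described. RP11-649A18.12, the overlapped coding genes with their members and the pathway examples were named after their values were seen. Alternatives were another pseudocount, filter, member minimum or scaling, edgeR 4.0.16 and DESeq2 1.42.0 on the recovered reads, a fit of the compared groups alone, a replicate block and leaving out each library. The test was tried on simulated data. Gene positions came from GENCODE 29 (GRCh38), matched by identifier, and promoters from RefSeq, with chromosome 8 left out.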

Additional observations from a re-analysis of the deposited data

Results flagged for a closer look

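A set of 4 antisense RNAs and 4 partner genes were called in opposite directions in different knockouts, and each difference among the 5 knockouts was tested with limma's F-test over all tested genes. Among the antisense RNAs the adjusted p was 2.87e-12 for RP11-115C10.1, 5.99e-11 for CTD-2516F10.2, 1.7e-10 for RP11-277P12.20 and 3.53e-08 for MEF2C-AS1. Among the partners it was 1.43e-15 for VIM, 9.85e-11 for AFAP1, 2.54e-09 for STARD4 and 1.63e-06 for MEF2C.

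STARD4 rose in RelB-labelled libraries (log2 0.56), the p50 knockout (0.52) and the p52 knockout (0.44) and fell in the RelA knockout (-0.31), where the adjusted p was 0.0802 and 0.129 without RelA knockout 1 or 2 and 0.172 and 0.0577 without control 1 or 2. MEF2C rose in RelB-labelled libraries (log2 0.32) and fell in the p50 knockout (-0.20), where the groups overlapped and the adjusted p was 0.143 without control 2 and 0.1 and 0.0996 without p50 knockout 1 or 2. VIM also rose in the RelA knockout (log2 0.28), with adjusted p between 0.0615 and 0.11 without RelA knockout 2 or 3 or control 1 or 2.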

How the results depend on the processing

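Of 203 called values of named genes, compared in 5887 instances with other settings, 5600 kept their direction and side of the threshold, 287 were no longer past it and 0 reversed. Leaving out each library in turn gave 1 to 5 called members in cRel-labelled, 18 to 28 in p50 knockout, 28 to 41 in p52 knockout, 3 to 5 in RelA knockout and 73 to 81 in RelB-labelled libraries, and 78 to 86 for the F-test. For partners these ranges were 1 to 4, 18 to 26, 32 to 38, 2 to 5, 44 to 49 and 51 to 54. The cRel-labelled count of 2 partners became 1 with TMM scaling, with a fit of the 2 groups, with no filter and with quantile normalization, and 6 with a replicate block; the RelA count of 4 became 2 with a fit of the 2 groups. The cause was not tested. On the recovered reads edgeR called 4, 31, 42, 3 and 83 members in cRel-labelled, p50, p52, RelA and RelB-labelled libraries and DESeq2 called 5, 27, 38, 3 and 78.

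With the replicate number as a block 5, 33, 39, 5 and 81 members were called in the same order and 85 by the F-test. The main fit does not take the numbers as pairs. In 0 of 5 knockouts were all 3 correlations of deviations with the same-numbered control over 0.1, although 16 of 18 libraries correlated best with their own number. The check against control says nothing of effects shared among same-numbered knockout libraries, and the main p-values take no account of the number. Depth limits the 65 members with means under 100, and it is not known whether reads of overlapping genes on opposite strands were counted apart.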
